A study of Mus musculus with 24 samples.

Results

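The miR-15/16 and miR-195/miR-497 family was described by its 5 guide strands, mmu-miR-15a-5p, mmu-miR-15b-5p, mmu-miR-16-5p, mmu-miR-195a-5p, and mmu-miR-497a-5p, which were taken by name from the 1531 mouse entries of the count tables. All 5 were counted in each of the 24 libraries, and the rule uses only their names and no measured value, although the family was picked for description with earlier results of these data known. The libraries came from CD1 mouse pups of both sexes at postnatal day 9, with 4 pups in the hypoxic-ischemic brain injury (HIBI) group and 4 in the sham group. The right common carotid artery of the HIBI pups was cauterized, and after 2 h with the dam they breathed 8% oxygen for 30 min. The sham pups had the same isoflurane anesthesia, bupivacaine, and neck dissection, with no ligation, and spent that time in normoxia. Tissue was taken 30 min after injury. The ipsilateral cerebellum, striatum/thalamus, and cortex of each pup, on the side of the ligation in HIBI pups, were sequenced as separate libraries. There was no group with hypoxia alone, so ligation and hypoxia cannot be told apart. In this model all regions are exposed to hypoxia while carotid ligation spares the blood supply of the cerebellum, and the study asked whether the miRNA response differed between regions.

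A miRNA hairpin is cut into a duplex of a 5p and a 3p strand, 1 of which, the guide, is usually kept by the Argonaute protein and pairs with messenger RNAs through its seed, bases 2 to 8. MiRNAs of the miR-15/16 family share a seed, and they are known for lowering cyclins, cyclin-dependent kinases, Chek1, and Bcl2, and so for restraining the cell cycle and survival. In the postnatal mouse cerebellum, granule cell precursors are still dividing, while most neurons of the cortex and striatum/thalamus have already left the cell cycle.

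The 5 mature sequences are shown because what sets the family apart is the seed, marked in capitals, and because the differences outside it decide how well reads of the members can be separated. They are the RefSeq sequences on GRCm38.p6, where all 5 members were found.
mmu-miR-15a-5p: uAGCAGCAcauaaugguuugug
mmu-miR-15b-5p: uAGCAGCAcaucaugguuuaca
mmu-miR-16-5p: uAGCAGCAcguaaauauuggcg
mmu-miR-195a-5p: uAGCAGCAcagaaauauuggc
mmu-miR-497a-5p: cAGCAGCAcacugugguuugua
The seed was AGCAGCA in all 5. Outside it the members fell into a group ending like miR-15a-5p and a group ending like miR-16-5p. Counted from 1 at the 5′ end and without gaps, miR-16-5p and miR-195a-5p differed by G10A and U11G, with the base of miR-16-5p first, and miR-195a-5p was 1 base shorter. MiR-15a-5p and miR-15b-5p differed by A12C, G20A, U21C, and G22A, and miR-15a-5p and miR-497a-5p by U1C, U11C, A12U, A13G, and G22A. A read of miR-16-5p with matching sequencing errors at both of its distinguishing bases would match miR-195a-5p over its 21 bases. At full length it would still carry 1 extra base at the 3′ end. The counts do not show how such reads, or reads with fewer errors, were assigned.

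The members come from 3 pairs of neighbouring hairpins. On chromosome 14, minus strand, Mir15a (61632027 to 61632110) lies in an intron and Mir16-1 (61631880 to 61631972) in an exon of the noncoding transcript Dleu2, with 54 bases between them. On chromosome 3, plus strand, Mir15b (69009772 to 69009835) and Mir16-2 (69009902 to 69009996) lie in an intron of the protein-coding gene Smc4, which encodes a condensin subunit, with 66 bases between them. On chromosome 11, plus strand, Mir497 (70234717 to 70234800) and Mir195a (70235042 to 70235135) are 241 bases apart, and Mir497 overlaps Mir497b on the opposite strand. MiR-16-5p is thus the product of both of the first 2 pairs, and its counts cannot be split between them.

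Each library held from 1254185 to 3406624 counts of mouse miRNAs. Levels are given as CPM, the counts of a miRNA per 1000000 counts of its library, after scaling by trimmed mean of M-values (TMM) over the 24 libraries. The neural miR-124-3p had a mean of 33700 CPM in cerebellum, 38200 CPM in striatum/thalamus, and 40800 CPM in cortex libraries. The other neural markers were less even, miR-9-5p with 87300, 37000, and 69500 CPM and miR-128-3p with 32000, 28700, and 89100 CPM in that order. MiR-206-3p, a muscle miRNA, had 353, 29.6, and 8.26 CPM in the same order, and the miRNAs listed as markers of other cell types were all detected in at least 1 library. These were bulk tissues, in which fewer cells of a type and less RNA per cell cannot be told apart.

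All 5 members were higher in the cerebellum than in the other regions, in each of the 8 pups, whether sham or HIBI. Together they held 1.61% ± 0.16 (SD, n = 8) of the mouse miRNA counts in the cerebellum, 0.561% ± 0.08 in the cortex, and 0.31% ± 0.0676 in the striatum/thalamus. The order cerebellum, cortex, striatum/thalamus held for the means of all 5, but miR-15b-5p did not differ between the last 2 regions beyond the spread of its libraries. Shares and CPM describe reads, and ligation in small RNA libraries favours some sequences, so that levels of different miRNAs are not amounts of molecules.

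**Figure D1:**
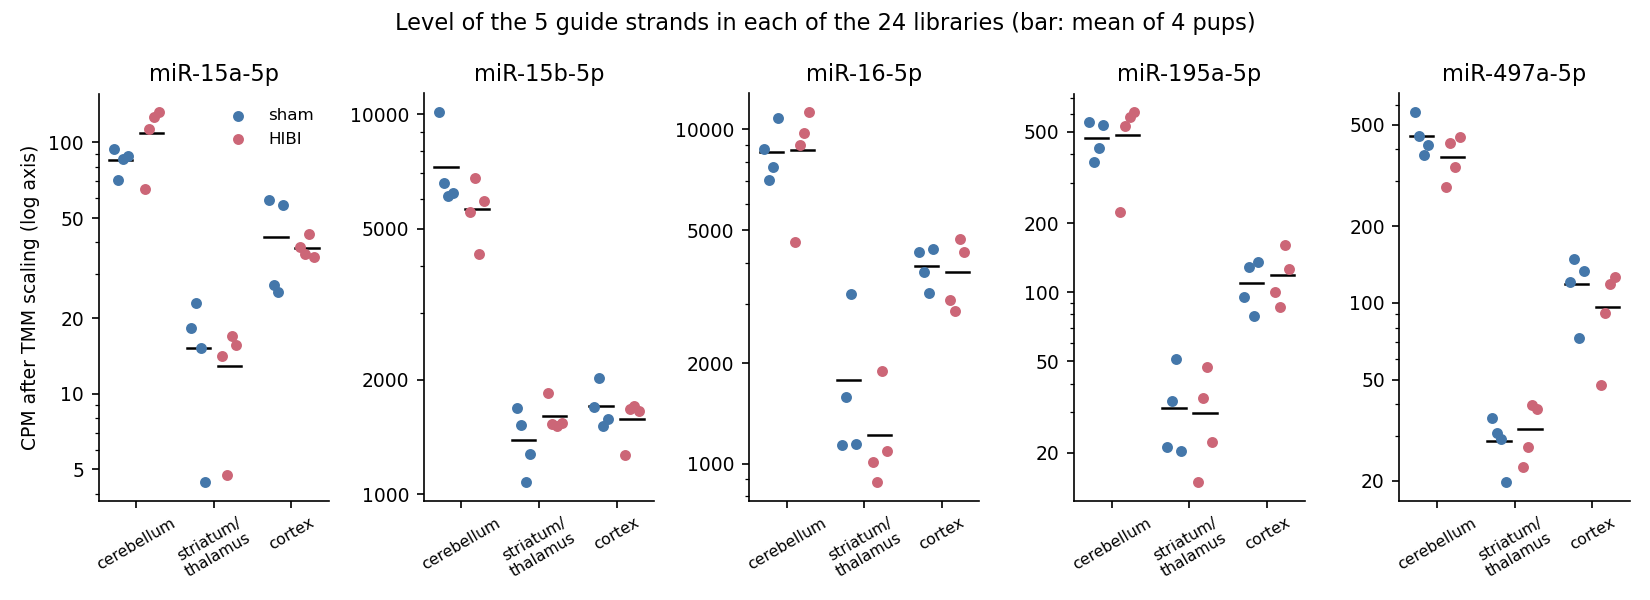
CPM after TMM scaling, on a log axis, of each of the 5 guide strands in the 24 libraries. Each point is 1 pup, sham in blue and HIBI in red, and bars are means of 4 pups; for every member the striatum/thalamus points lie below all cerebellum points, while the sham and HIBI points of a region overlap.

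MiR-16-5p, the most counted member in the cerebellum and cortex, ranged from 4603 to 11280 CPM in the 8 cerebellum libraries, with a median of 8873. In the cortex it ranged from 2869 to 4707 CPM (median 4020), and its striatum/thalamus range was 882 to 3228 CPM (median 1146). Its striatum/thalamus libraries were all below those of the cerebellum, whereas the highest cortex library passed the lowest cerebellum library.

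MiR-15b-5p, the neighbour of Mir16-2 in Smc4, ranged from 4295 to 10140 CPM in the cerebellum (median 6162). It ranged from 1077 to 1842 CPM in the striatum/thalamus (median 1523) and from 1270 to 2026 CPM in the cortex (median 1669). The cerebellum libraries stood clear of both other regions, and those 2 regions overlapped over most of their range.

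MiR-15a-5p, from the Dleu2 transcript, was the least counted member. It ranged from 65.6 to 132 CPM in the cerebellum (median 91.4), from 25.4 to 58.9 in the cortex (median 37.1), and from 4.45 to 23.0 in the striatum/thalamus (median 15.5). The 3 regions did not overlap, although the striatum/thalamus values rest on only 7 to 55 counts per library.

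MiR-195a-5p ranged from 224 to 609 CPM in the cerebellum (median 534), from 78.9 to 161 in the cortex (median 114), and from 14.9 to 51.1 in the striatum/thalamus (median 27.9). Its cluster mate miR-497a-5p ranged from 284 to 561 CPM in the cerebellum (median 419), from 47.7 to 148 in the cortex (median 120), and from 19.8 to 39.8 in the striatum/thalamus (median 30.0). For both, the libraries of the 3 regions fell into separate ranges.

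Between the striatum/thalamus and cerebellum, with edgeR's quasi-likelihood test averaged over HIBI and sham, all 5 members passed the test as lower in the striatum/thalamus. Of the 435 miRNAs tested, 33.8% were lower with an adjusted p-value under 0.05. The log2 difference was -3.96 (SE 0.27) for miR-195a-5p, 15.5-fold lower with an adjusted p-value of 8.0e-12. It was -3.76 (SE 0.22) for miR-497a-5p, 13.5-fold lower with an adjusted p-value of 6.4e-13. The 2 products of chromosome 11 were the 5th and 7th lowest of the 435. The differences were -2.77 (SE 0.29) for miR-15a-5p, -2.55 (SE 0.23) for miR-16-5p, and -2.10 (SE 0.14) for miR-15b-5p, which are 6.81-fold, 5.86-fold, and 4.28-fold lower. Their adjusted p-values were 8.8e-09, 9.3e-10, and 5.5e-12. The libraries of the 2 regions did not overlap for any member, which was so, with the striatum/thalamus below, for 14.3% of all miRNAs tested. The median of the 5 was -2.77, beside 0.0077 for all miRNAs.

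Between the cortex and cerebellum, all 5 members were also called lower, in the cortex, against 34.0% of the miRNAs tested. MiR-195a-5p was lower by a log2 difference of -2.07 (SE 0.24), miR-15b-5p by -1.96 (SE 0.14), and miR-497a-5p by -1.94 (SE 0.20), which are 4.19-fold, 3.90-fold, and 3.85-fold. Smaller differences were found for miR-15a-5p, at -1.27 (SE 0.27) or 2.41-fold, and miR-16-5p, at -1.17 (SE 0.22) or 2.25-fold. The largest adjusted p-value of the 5, that of miR-15a-5p, was 0.00024. Libraries did not overlap for 4 of the 5, all but miR-16-5p, beside 12% of all miRNAs. The median of the 5 was -1.94, beside a shift of -0.156 for all miRNAs.

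Between the cortex and striatum/thalamus, 4 of the 5 members were called higher in the cortex, against 25.1% of the miRNAs tested. They were miR-195a-5p with 1.89 (SE 0.25), miR-497a-5p with 1.81 (SE 0.20), miR-15a-5p with 1.5 (SE 0.28), and miR-16-5p with 1.38 (SE 0.22) on the log2 scale, which are 3.71-fold, 3.51-fold, 2.83-fold, and 2.60-fold higher. The first 2 were the 4th and 5th highest of the 435. The fifth member, miR-15b-5p, had a log2 difference of 0.14 (95% interval -0.14 to 0.41) and an adjusted p-value of 0.40. Libraries did not overlap for miR-15a-5p, miR-195a-5p, and miR-497a-5p, beside 9.43% of all miRNAs. Thus the 4 members fell from the cerebellum to the cortex and again to the striatum/thalamus, while miR-15b-5p did not pass the test between the last 2.

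**Figure D2:**
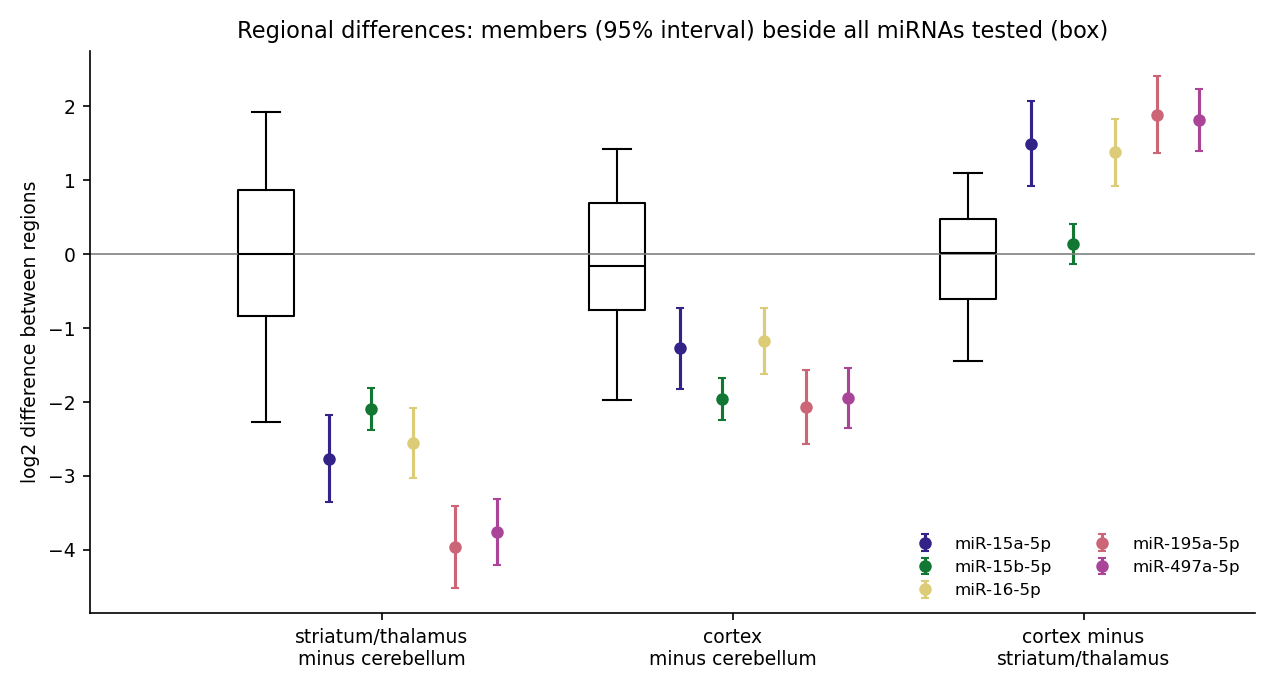
Log2 difference between 2 regions, averaged over sham and HIBI, for the 5 members, with 95% intervals, over 8 pups. Boxes show the quartiles of the 435 miRNAs tested and whiskers their 5th and 95th percentiles; the members lie at -3.96 to -2.10 in the first comparison, and miR-15b-5p stands apart from the other 4 in the last.

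Within each injury group every region difference of a member called over both groups was called as well, with adjusted p-values that were larger, up to 0.024 for miR-15a-5p between the cortex and cerebellum in sham libraries (-1.02, SE 0.37). In the sham libraries alone, miR-195a-5p was lower in the striatum/thalamus than in the cerebellum by a log2 difference of -3.89 (SE 0.38), and in the HIBI libraries by -4.02 (SE 0.38). For miR-15b-5p the values were -2.39 (SE 0.20) in sham and -1.81 (SE 0.19) in HIBI libraries. Because the same pups gave all regions, the fit was repeated with the pup as a block, which changed no call on a member.

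Markers of other cell types moved between the same regions. By the median of a list, the largest differences were in the muscle list, of which miR-1a-3p and miR-206-3p were tested and both were called lower in the striatum/thalamus (median log2 difference -2.53) and in the cortex (-3.57) than in the cerebellum. Its summed level ran from 345 to 651 CPM in the cerebellum, 28.4 to 64.4 in the cortex, and 39.3 to 141 in the striatum/thalamus. Of the oligodendrocyte list (miR-219a-2-3p and miR-338-3p), 2 of 2 were called lower in both the striatum/thalamus and cortex than in the cerebellum, and the summed level ran from 4790 to 8320 CPM in the cerebellum, 787 to 2550 in the cortex, and 1050 to 4180 in the striatum/thalamus. Of the 2 endothelial strands, miR-126a-3p was tested and was lower in the striatum/thalamus, by a log2 difference of -0.996 with an adjusted p-value of 0.00016. In the cortex its difference from the cerebellum was -0.08 with an adjusted p-value of 0.73. The summed endothelial level ran from 2110 to 4830 CPM in the cerebellum, 2160 to 3740 in the cortex, and 974 to 3130 in the striatum/thalamus. Mural and fibroblast markers were called lower in the striatum/thalamus for 3 of 4, and in the cortex for 2 of 4. Of the choroid plexus list 1 strand, miR-204-5p, was tested and was lower in both regions, at -0.83 and -0.70. Of 3 markers of ciliated cells, all were called lower in the cortex, while in the striatum/thalamus 1 was lower and 1 higher. The 1 myeloid marker tested, miR-223-3p, was called lower in the striatum/thalamus (-0.75) and had -0.30 in the cortex, which did not pass the test. Of the 3 neural markers, miR-9-5p was called lower in the striatum/thalamus than in the cerebellum (-1.24, adjusted p-value 3.6e-05). MiR-128-3p was called higher in the cortex than in the cerebellum (1.48, adjusted p-value 4.1e-08), and miR-124-3p was called in neither region. Against the striatum/thalamus, miR-126a-3p (log2 difference 0.91), 2 of 3 neural, and 1 of 4 mural and fibroblast markers were called higher in the cortex. Called lower there were 1 of 2 tested muscle, 1 of 3 ciliated, and 1 of 2 oligodendrocyte markers. The tested myeloid and choroid plexus markers were not called.

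MiR-16-5p and miR-451a are both abundant in red blood cells. The summed erythrocyte list ran from 930 to 2360 CPM in the cerebellum, 734 to 1110 in the cortex, and 945 to 2660 in the striatum/thalamus. Of its 5 strands, 3 were tested, and 1, miR-451a, was lower in the striatum/thalamus than in the cerebellum (log2 difference -1.05, adjusted p-value 0.0058). In the cortex the other 2 were lower than in the cerebellum, miR-486a-5p by -0.81 and miR-486b-5p by -0.76, with adjusted p-values of 0.0015 and 0.0019, and the summed list differed by -0.68, where miR-16-5p differed by -1.17. Between the striatum/thalamus and cerebellum the summed list differed by -0.01 on the log2 scale, where miR-16-5p differed by -2.55. Against the striatum/thalamus, 2 of the 3 tested strands were called lower in the cortex and 1 higher. No marker on these lists was at 0 in all libraries, and the part of these cell types in the region differences was not tested.

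HIBI and sham were then compared within each region, with the criterion of the study, a change of more than 1.5-fold at an unadjusted p-value under 0.05. None of the 5 members met it in the cerebellum, where 7.83% of 434 miRNAs did. None did in the striatum/thalamus (2.75% of 436) or in the cortex (3.41% of 410). The smallest adjusted p-value of a member in any region was 0.478, and none had an unadjusted p-value under 0.05. Nor did the HIBI and sham libraries of a region separate for any member, as they did for 3.92% of the miRNAs tested in the cerebellum, 3.41% in the cortex, and 1.83% in the striatum/thalamus. With 4 against 4 pups the smallest exact two-sided permutation p-value is 0.0286, and the smallest found for a member was 0.143, for miR-15b-5p in the cerebellum.

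The largest difference was that of miR-16-5p in the striatum/thalamus. The 4 sham libraries had 1142, 1588, 3228, and 1149 CPM (pups 2, 3, 6, and 8), and the 4 HIBI libraries had 1011, 882, 1890, and 1093 CPM (pups 1, 4, 5, and 7). One sham library, of pup 6, stood far above the others, and 1 HIBI library, of pup 5, lay above 3 of the 4 sham libraries. The log2 fold change was -0.62 (95% interval -1.44 to 0.20), with p = 0.123, an adjusted p-value of 0.98 in edgeR, and an exact permutation p of 0.343. Without sham pup 6 it was -0.08, and without HIBI pup 5 it was -0.93, which meets the criterion. The sham library of pup 6 was also the highest of its group in miR-451a, with 356 CPM against 58.7, 129, and 64.8, and in miR-126a-3p, with 3120 CPM against 1240, 1660, and 1480. Its summed erythrocyte list, at 1370 CPM, lay within the 1260 to 1670 CPM of that group. It was also the highest of its group in the neural list (152000 CPM against 88500 to 122000), the oligodendrocyte list (4180 against 1840 to 3270), the muscle list (141 against 52.8 to 122), and, narrowly, the myeloid list (27.2 against 10.6 to 25.9). Of the HIBI libraries of this region, that of pup 5 was highest in miR-451a (126 CPM against 62.5 to 99.6). Its miR-126a-3p was highest too (2160 against 968 to 1500). So were its neural (123000 against 78900 to 93500), muscle, choroid plexus, and ciliated lists. Its summed erythrocyte list was the lowest (945 against 1520 to 2660). The mural and fibroblast, oligodendrocyte, and myeloid lists lay within the ranges of the others. The part of any of these cell types in the values of pups 5 and 6 was not tested.

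In the cerebellum, miR-15b-5p had 10140, 6597, 6112, and 6213 CPM in the sham pups and 5534, 6785, 4295, and 5904 CPM in the HIBI pups. The highest value was that of sham pup 2, and the HIBI pups covered a range that included 3 of the 4 sham values. The log2 fold change was -0.34 (95% interval -0.82 to 0.13), with an adjusted p-value of 0.48, and without sham pup 2 it was -0.18. That library was also the highest of its group in the choroid plexus list, with 9350 CPM against 2340 to 4240, and in the ciliated list, with 835 CPM against 221 to 396. By less it was also highest in the erythrocyte list (2360 against 1230 to 2180 CPM) and muscle list (601 against 447 to 535 CPM). Its miR-451a, of the erythrocyte list, was the lowest of the group, at 149 CPM against 177 to 520. Its endothelial list (2110 against 2250 to 4040 CPM) and mural and fibroblast list (2630 against 3040 to 4080 CPM) were the lowest too. The oligodendrocyte list was also the lowest, at 5240 CPM against 6250 to 7080. The part of these cell types in its miR-15b-5p value was not tested. MiR-15a-5p leaned the other way, with 94.2, 70.9, 86.3, and 88.6 CPM in sham and 65.6, 113, 126, and 132 CPM in HIBI pups. The values of HIBI pups 4, 5, and 7 were above all sham values and that of pup 1 was below them. Its log2 fold change was 0.38 (95% interval -0.18 to 0.94), with an adjusted p-value of 0.48.

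The library of HIBI pup 1 was the lowest of its cerebellum group for miR-15a-5p, miR-16-5p (4603 CPM against 8995 to 11280), miR-195a-5p (224 CPM against 531 to 609), and miR-497a-5p. It was also the smallest library, with 1254185 counts, and it had the lowest miR-451a, at 129 CPM against 194 to 315, and the lowest miR-126a-3p, at 2480 CPM against 3130 to 4810, of its group. Its neural list, at 103000 CPM against 167000 to 182000, its muscle list, at 345 CPM against 454 to 651, and its mural and fibroblast list, at 3100 CPM against 3610 to 5940, were the lowest too. By contrast, its summed erythrocyte list, at 1230 CPM, lay within the 930 to 1350 CPM of the others. Its ciliated list was the highest, at 363 CPM against 195 to 304. The oligodendrocyte, myeloid, and choroid plexus lists lay within the ranges of the others. The part of these cell types in its values was not tested. Without this library the log2 fold change of miR-15a-5p in the cerebellum was 0.55, with an unadjusted p-value under 0.05 but less than a 1.5-fold change, so that no member met the criterion.

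The remaining differences were small beside their intervals. In the cerebellum the log2 fold changes were 0.04 for miR-16-5p, 0.07 for miR-195a-5p, and -0.25 for miR-497a-5p, and in the cortex the 5 members lay between -0.31 and 0.11. The 95% intervals did not reach a 1.5-fold change in either direction for miR-15b-5p and miR-16-5p in the cortex, for miR-15b-5p in the striatum/thalamus, or, narrowly, for miR-16-5p in the cerebellum. For miR-15a-5p in the striatum/thalamus the interval ran from -1.51 to 0.90, which leaves room for a change of more than 1.5-fold in either direction.

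**Figure D3:**
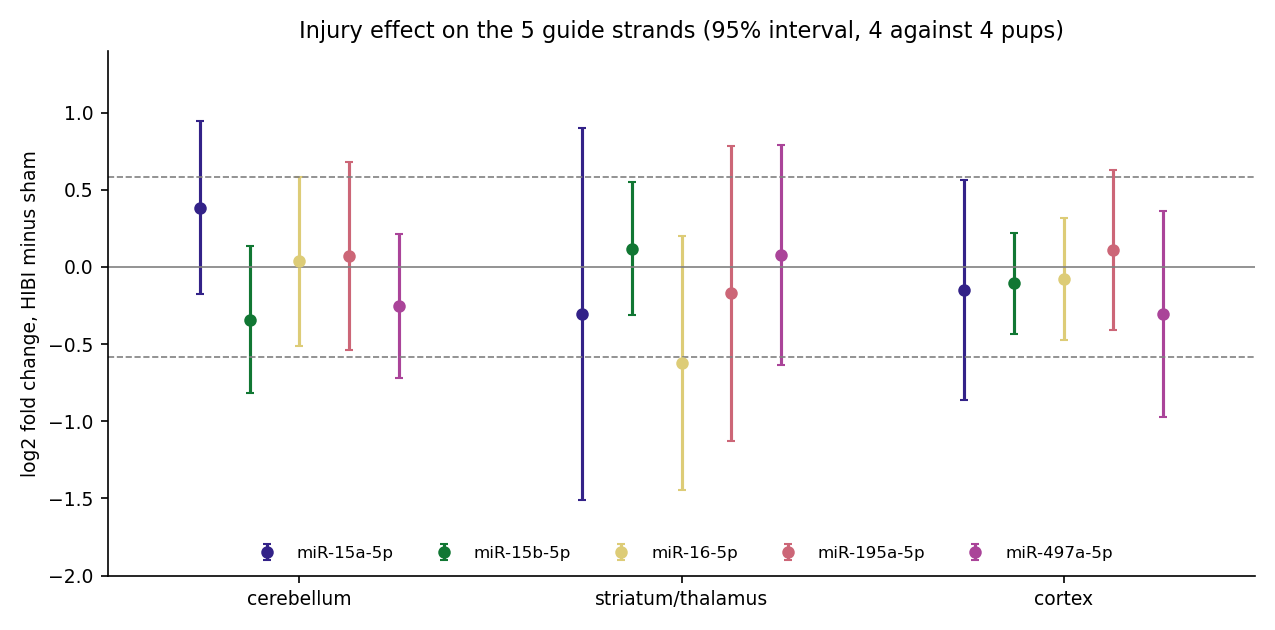
Log2 fold change of HIBI against sham for the 5 members in each region, with 95% intervals over 4 against 4 pups. Dashed lines mark a 1.5-fold change; every interval crosses 0, and the lowest estimate is that of miR-16-5p in the striatum/thalamus, at -0.62.

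Whether the injury effect differed between regions was tested as an interaction over the 24 libraries. No member had an adjusted p-value under 0.05, nor did any of the 435 miRNAs tested with edgeR, of which 59 in the striatum/thalamus, 51 in the cortex, and 70 in the mean of both had an unadjusted p-value under 0.05 against the cerebellum. The DESeq2 Wald test called 6 miRNAs in the mean of both against the cerebellum, and no member. The member with the smallest p-value was miR-15b-5p, whose log2 fold change was higher in the striatum/thalamus than in the cerebellum by 0.58 (SE 0.27, adjusted p-value 0.36). For the other 4 members the differences between the striatum/thalamus and cerebellum lay between -0.59 and 0.44, with adjusted p-values of 0.54 or more.

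The other strands of the hairpins are cut in the same step as the guides, and their levels are a second readout that the choice of members did not use. The seeds are again in capitals, in RefSeq sequences.
mmu-miR-195a-3p: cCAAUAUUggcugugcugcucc
mmu-miR-15b-3p: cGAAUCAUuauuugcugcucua
Only these 2 were counted in all 24 libraries. MiR-15a-3p had 4 counts, miR-16-1-3p 10, and miR-16-2-3p 53 in all libraries together, beside 258314 counts of miR-16-5p, and miR-497a-3p was not analysed here. MiR-16-1-3p was counted in 4 and miR-16-2-3p in 12 of the 24 libraries, and they give no measure of how much miR-16-5p came from each hairpin.

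MiR-195a-3p followed the regional order of its guide. It was lower in the striatum/thalamus than in the cerebellum by a log2 difference of -3.21 (SE 0.25), and in the cortex by -2.18 (SE 0.24), with adjusted p-values of 9.8e-11 and 2.7e-08. MiR-15b-3p was lower by -2.87 (SE 0.37) and -2.39 (SE 0.35), with adjusted p-values of 2.6e-07 and 2.9e-06, and, like miR-15b-5p, it was not called between the cortex and striatum/thalamus (0.48, SE 0.37, adjusted p-value 0.29).

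Of the strands of these hairpins that were tested, miR-195a-3p alone met the criterion of the study between HIBI and sham. In the cerebellum it had 172, 155, 103, and 119 CPM in the sham pups and 52.7, 89.9, 64.4, and 122 CPM in the HIBI pups. The values of HIBI pups 1, 4, and 5 were below all sham values, and that of pup 7 lay among them. The log2 fold change was -0.72 (95% interval -1.38 to -0.06), with p = 0.034 and an adjusted p-value of 0.43 in edgeR, and an exact permutation p of 0.0857. In the striatum/thalamus the sham pups had 12.3, 10.5, 9.55, and 5.94 CPM and the HIBI pups 12.8, 13.5, 12.6, and 16.04 CPM. There all HIBI values were above the sham values after TMM scaling, by a narrow margin and on 12 to 38 counts. HIBI pup 4 had 20 counts in a library of 1753639, and sham pup 2 had 21 in a smaller library of 1607306. As a share of unscaled library counts, sham pup 2 was thus above HIBI pup 4, whose TMM factor was 0.842. The separation, and the exact test made on the scaled values, therefore depend on the scaling. The exact permutation p was 0.0286, the smallest the design allows, while edgeR gave a log2 fold change of 0.44 (SE 0.38) with p = 0.277. The interaction between these regions was 1.26 (SE 0.48), with an adjusted p-value of 0.28. Its guide, miR-195a-5p, changed by 0.07 and -0.17 on the log2 scale in the same regions, without passing the test.

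To compare members without the scaling between libraries, 7 ratios of counts were formed within each library, of neighbours, near-identical guides, or both arms of a hairpin, and 42 comparisons were made between regions and between HIBI and sham. Between regions the exact two-sided sign-flip test paired the 8 pups, with 0.00781 as its smallest p-value. No comparison had an adjusted p-value under 0.05 over the 42, and 4 reached that smallest value, with an adjusted p-value of 0.082.

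In those 4, all 8 pups moved the same way. The ratio of miR-195a-5p to miR-16-5p had a mean log2 of -4.19 (SD 0.13) in the cerebellum, -5.08 (SD 0.23) in the cortex, and -5.59 (SD 0.44) in the striatum/thalamus. Against the cerebellum it was thus 2.64-fold lower in striatum/thalamus and 1.86-fold lower in cortex libraries. The ratio of miR-15b-5p to miR-16-5p was 1.74-fold lower in the cortex than in the cerebellum, with a log2 of -1.21 (SD 0.26) against -0.41 (SD 0.53). The ratio of miR-195a-5p to miR-195a-3p, the arms of 1 hairpin, was 2.03-fold higher in the cortex than in the striatum/thalamus. Without the pairing, an exact permutation of 8 against 8 libraries gave these 4, and the ratios of miR-15b-5p to miR-16-5p and of miR-15a-5p to miR-15b-5p between the cortex and striatum/thalamus, adjusted p-values under 0.05.

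The last 2 ratios had exact paired p-values of 0.0156 and adjusted p-values of 0.109. MiR-15b-5p to miR-16-5p was 2.50-fold lower in the cortex than in the striatum/thalamus, and miR-15a-5p to miR-15b-5p was 2.79-fold higher. By contrast, the ratio of the neighbours miR-195a-5p and miR-497a-5p moved by at most 0.24 on the log2 scale between any 2 regions, with exact p-values of 0.297 or more. That of miR-15a-5p and miR-16-5p moved by at most 0.30, with exact p-values of 0.289 or more.

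Between HIBI and sham, only the ratio of miR-15a-5p to miR-16-5p in the cerebellum reached the smallest exact p-value of 0.0286, with an adjusted p-value of 0.15 over the 42. Its mean log2 was -6.64 (SD 0.20) in sham and -6.28 (SD 0.12) in HIBI pups. The ratio of miR-195a-5p to miR-195a-3p in the cerebellum was 1.67-fold higher in HIBI pups (exact p = 0.0571, adjusted p-value 0.20).

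**Figure D4:**
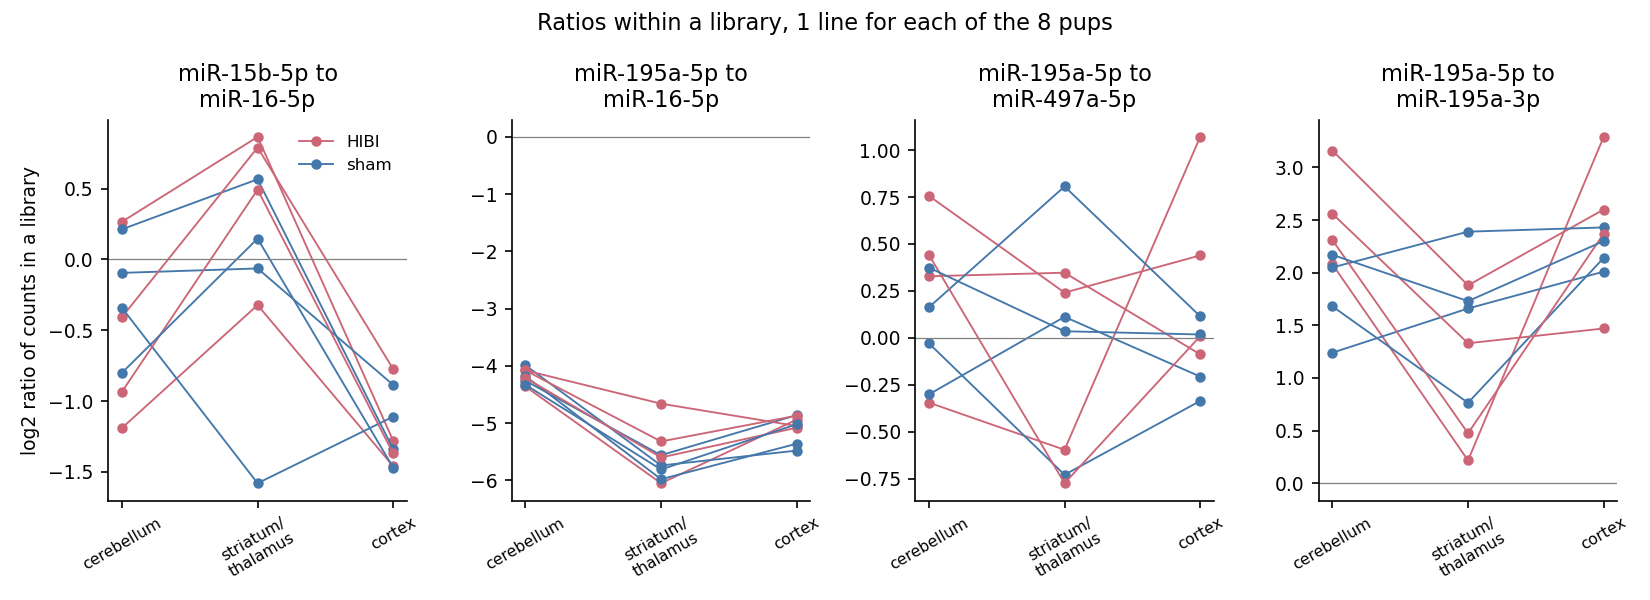
Log2 ratio of the counts of 2 strands in each library, 1 line per pup (sham in blue, HIBI in red). MiR-195a-5p to miR-16-5p was lower in the striatum/thalamus and cortex than in the cerebellum in all 8 pups, whereas miR-195a-5p to its neighbour miR-497a-5p, near 0, crossed between pups without a common direction.

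Pups of 1 group in 1 region differed from each other in these ratios too. Pooled over the 6 groups (18 degrees of freedom), the SD of the log2 ratio was smallest for miR-16-5p and miR-195a-5p, at 0.289, with 0.137 due to counting error. These 2 come from different chromosomes and differ at 2 bases, and how far reads of one were counted as the other was not tested. It was 0.361 for miR-15b-5p and miR-497a-5p, which also come from different chromosomes. The neighbours had wider spreads, 0.472 for miR-195a-5p and miR-497a-5p, 0.558 for miR-15a-5p and miR-16-5p, and 0.567 for miR-15b-5p and miR-16-5p. The counting error of the last was 0.03. Of single members, miR-15b-5p varied least between pups of a group (SD 0.249 of log2 CPM) and miR-15a-5p, with the fewest counts, most (0.601).

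The 6 group means of log2(CPM + 1) of each miRNA were centred on their own average. By the root mean square difference of these means, members were set against 228 miRNAs. These were the miRNAs averaging above 100 CPM, with all members kept in, although miR-15a-5p averaged less than that. MiR-15a-5p and miR-16-5p, neighbours in Dleu2, were nearest to each other, at 0.164. MiR-195a-5p and miR-497a-5p were nearest to each other too, at 0.195. MiR-15b-5p was not near its neighbour miR-16-5p, at 0.586, and its nearest were miR-106b-3p (0.207), miR-93-5p (0.257), and let-7b-5p (0.320). MiR-17-5p and miR-181a-1-3p came next for miR-15a-5p and miR-16-5p, at 0.244 to 0.349, and miR-106b-5p and miR-25-3p for the chromosome 11 pair, at 0.270 to 0.478. MiR-106b-5p, for example, had a mean of 236 CPM in the cerebellum, 53.5 in the cortex, and 24.7 in the striatum/thalamus. With only 6 means that share libraries, this is a description of likeness in level.

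**Figure D5:**
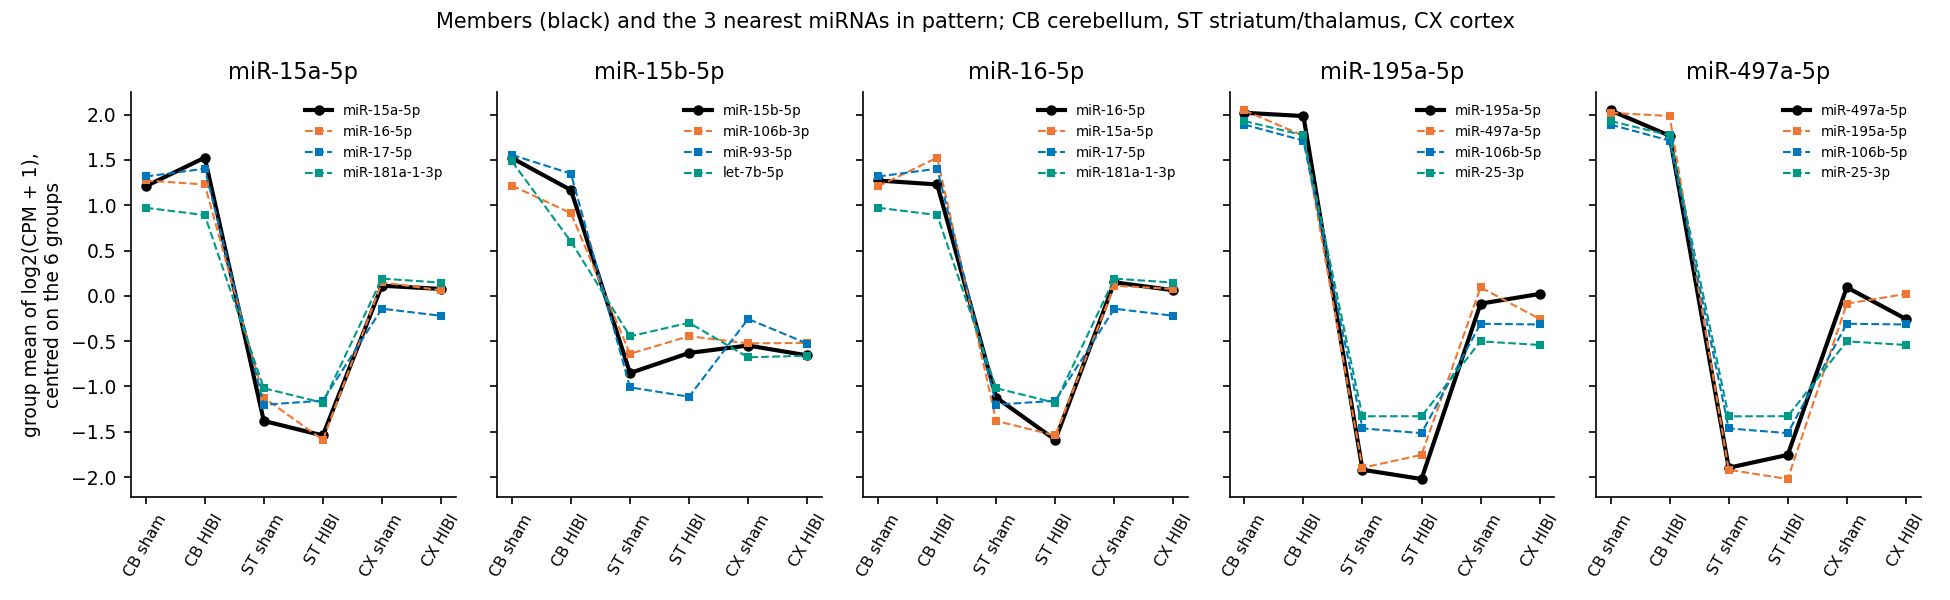
Group means of log2(CPM + 1), centred on the 6 groups, for each member (black) and its 3 nearest miRNAs (dashed) among the members and those above 100 CPM. Of the 5 members, miR-15b-5p alone is about as low in the cortex as in the striatum/thalamus. Of its 3 nearest miRNAs, miR-106b-3p and let-7b-5p are about as low or lower in the cortex, while miR-93-5p is higher there than in the striatum/thalamus.

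The regional pattern was not shared by the other same-seed miRNA that could be compared. Of the entries with the same seed, only miR-322-5p, from a cluster with Mir503 on chromosome X, was found in the tables with a RefSeq sequence, and its RefSeq sequence is printed to show the shared seed and the different rest.
mmu-miR-322-5p: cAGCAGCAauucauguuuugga
It had a mean of 37.6 CPM in the cerebellum, 40.1 in the cortex, and 25.2 in the striatum/thalamus. Its log2 difference from the cerebellum was -0.54 (95% interval -1.07 to -0.01, adjusted p-value 0.065) in the striatum/thalamus and 0.12 (-0.40 to 0.65, adjusted p-value 0.67) in the cortex, intervals that lie outside those of all 5 members. The neighbouring miR-503-5p, with the seed AGCAGCG, was lower by -1.02 (SE 0.28) in the striatum/thalamus and -0.76 (SE 0.27) in the cortex, with adjusted p-values of 0.0022 and 0.017. In HIBI against sham neither met the criterion in any region. MiR-195b, miR-6342, miR-6353, and miR-6419 were not analysed here, and miR-1907 (4 counts) and miR-497b (13 counts) were too rare to compare.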

How the data were processed

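The authors used 200 ng of each RNA for NEXTFLEX small RNA libraries, sequenced them on an Illumina NextSeq, and aligned the reads with bowtie2 to mature mouse miRBase sequences, and they deposited a table of unnormalized read counts per miRNA for each region. Versions, the miRBase release, and the treatment of reads matching several miRNAs are not given in the sources used here. The tables also hold the authors' edgeR comparison (log2 fold change, average log2 CPM, p-value, and false discovery rate), which was not used. Of 1551 entries, 20 from castor bean, with 0.000156% of the counts, were left out.

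MiRNAs averaging above 10 CPM were tested in R 4.3.3 with edgeR 4.0.16 (quasi-likelihood test, TMM). HIBI and sham were compared over the 8 libraries of a region, and regions and interactions in 1 model of the 24 libraries with a mean for each group, with p-values adjusted by Benjamini-Hochberg over all miRNAs tested. DESeq2 1.42.0, other scalings and filters, an exact edgeR test, and leaving out each pup were alternatives. Permutation and sign-flip tests were exact and two-sided, on log2(CPM + 1) or on log2 ratios of counts with 0.5 added to each. The p-values of the 42 ratio comparisons were adjusted with scipy 1.17.1. Code was tested on simulated data.

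Each pup gave all 3 regions, so libraries with the same pup number are from the same animal. The correlation over 435 miRNAs of deviations from the group means had a median over pups of 0.16 for cerebellum with striatum/thalamus, 0.27 for cerebellum with cortex, and 0.19 for cortex with striatum/thalamus, and was over 0.1 in 5, 7, and 5 of the 8 pups. HIBI and sham pups are different animals, and litters are not given, so p-values measure the spread between these pups.

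The strands named were the 5 members, the other strands of their hairpins, entries with the same seed, miR-497b, miR-1907, and miR-503-5p. The 3 nearest miRNAs in pattern to each member and marker lists of other cell types were named too. The family, the lists, and the tests were chosen with earlier results of these data known, although the rule for members uses names alone. Sequences are from RefSeq on GRCm38.p6, and hairpin positions, the distances between hairpins, and host genes from GENCODE M21. The closest 2 replicates differed beyond sampling noise (chi-square of 26.5 per degree of freedom), so each library counted as 1.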

Additional observations from a re-analysis of the deposited data

Results flagged for a closer look

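Of the 96 groups of 4 libraries examined (for 9 strands, namely the members, both tested other strands, miR-322-5p, and miR-503-5p, and for 7 ratios), 4 held a value far from the other 3, as judged by Dixon's criterion, which chance alone meets in about 1 in 20 groups. All 4 are given as values without an explanation. MiR-15b-5p had 10140 CPM in the cerebellum of sham pup 2, with the other sham pups at 6112 to 6597. MiR-15b-5p had 1842 CPM in the striatum/thalamus of HIBI pup 1, with the others at 1511 to 1538, and in the cortex of the same pup it had 1270 CPM, with the others at 1660 to 1712. MiR-322-5p had 27.1 CPM in the cortex of sham pup 3, with the others at 41.8 to 43.8.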

How the results depend on the processing

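In each region contrast all 80 values of members under the alternatives kept their direction and their side of the threshold, except that miR-15b-5p between the cortex and striatum/thalamus, uncalled, was -0.0216 in the HIBI libraries alone. No paired analysis was possible within a region because HIBI and sham pups are different animals. With the replicate block for pup, no member's call changed, and the uncalled interaction of miR-195a-5p in the mean of both forebrain regions was 0.00765 in place of -0.03. Without the pairing, 6 ratios passed that did not with it, as given above. None of the alternatives called a member between HIBI and sham, apart from miR-16-5p in the striatum/thalamus, at -0.64 with no CPM filter, and at -0.93 without HIBI pup 5 (-0.93 to -0.0835 with 1 pup left out). The cause was not tested. A member at 10 CPM rests on 12.5 to 34.1 reads by library, which limits miR-15a-5p most. With the nearest miRNAs sought above 10 CPM, the first of each member's 3 was the same.

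Over all miRNAs, calls between HIBI and sham numbered 106 with no CPM filter and 61 above 1 CPM in the cerebellum, against 34. In the striatum/thalamus they numbered 54 with no filter, and 19 above 1 CPM, in the DESeq2 Wald test, and in 1 fit of 24 libraries, against 12. In the cortex they numbered 86 and 41, against 14. Leaving out 1 pup gave 18 to 82 calls in the cerebellum (18 without sham pup 2 and 82 without sham pup 6) and 5 to 38 in the striatum/thalamus (5 without sham pup 3 and 38 without HIBI pup 5). The cortex minus cerebellum contrast called 157 in HIBI libraries only, against 282, and cortex minus striatum/thalamus 144 in sham libraries only, against 234. Interactions called with no filter numbered 2 (striatum/thalamus), 5 (cortex), and 10 (mean of both), and 6 for the last in the DESeq2 Wald test, against 0.

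Signs of values that no setting called also turned. Under upper quartile scaling, HIBI minus sham in the cerebellum was -0.0889 for miR-16-5p and -0.0624 for miR-195a-5p, and -0.00147 for miR-16-5p with no filter. For the interaction of cortex and cerebellum, miR-195a-5p had -0.000548 with DESeq2 size factors, -0.0793 with library size only, -0.0567 with no filter, and -0.000553 in the DESeq2 Wald test, and miR-497a-5p had 0.0631 under upper quartile scaling, under which miR-195a-5p in the mean of both had 0.0313. With 1 pup left out, HIBI minus sham ran from -0.12 to 0.23 for miR-16-5p and -0.0605 to 0.30 for miR-195a-5p in the cerebellum. In the striatum/thalamus it ran from -0.52 to 0.0445 for miR-15a-5p, -0.51 to 0.26 for miR-195a-5p, and -0.0579 to 0.28 for miR-497a-5p. In the cortex the ranges were -0.31 to 0.0795 for miR-15a-5p, -0.17 to 0.0079 for miR-15b-5p, -0.20 to 0.0169 for miR-16-5p, and -0.0662 to 0.24 for miR-195a-5p.

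Interactions with 1 pup left out ran from -0.36 to 0.25 for miR-195a-5p in the striatum/thalamus. In the cortex they ran from -0.23 to 0.0538 for miR-16-5p, -0.11 to 0.25 for miR-195a-5p, and -0.19 to 0.16 for miR-497a-5p, and in the mean of both from -0.21 to 0.14 for miR-195a-5p. Log2 ratios with a sign that turned ran from -0.0287 to 0.63 (striatum/thalamus, HIBI minus sham), -0.10 to 0.21 (cortex, HIBI minus sham), and -0.0582 to 0.32 (cortex minus striatum/thalamus) for miR-15a-5p to miR-16-5p. For miR-15a-5p to miR-15b-5p they ran from -0.85 to 0.0070 (striatum/thalamus, HIBI minus sham) and -0.18 to 0.29 (cortex, HIBI minus sham). For miR-15b-5p to miR-16-5p the range was -0.17 to 0.0841 (cortex, HIBI minus sham), and for miR-195a-5p to miR-16-5p it was -0.0379 to 0.0749 (cerebellum, HIBI minus sham). For miR-195a-5p to miR-497a-5p they ran from -0.25 to 0.0092 (cortex minus cerebellum) and -0.0124 to 0.32 (cortex minus striatum/thalamus). For miR-15b-5p to miR-15b-3p they ran from -0.45 to 0.43 (striatum/thalamus) and -0.51 to 0.11 (cortex), and for miR-195a-5p to miR-195a-3p from -0.076 to 0.53 (cortex), all HIBI minus sham.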
